A study of Mus musculus with 6 samples.

Results

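The genes described here carry bone morphogenetic protein (BMP) signalling and the Id response to it in mouse embryonic stem (ES) cells. The members were chosen by gene symbol, as all probe sets of the array whose platform annotation gives a single symbol out of Id1, Id2, Id3, Id4, Bmp4, Bmpr1a, Smad1, Smad5, Smad6 and Bambi. Each gene had 1 probe set, so 10 of the 19938 genes named by a single symbol, and 10 of the 35557 probe sets in the deposited table, are members. All 10 passed the filter on low values. Expression was measured on 6 Affymetrix Mouse Gene 1.0 ST arrays. Of these, 3 hold RNA of the parental wild-type ES cell line w9.5 (WT), and 3 hold RNA of Cl34, an ES cell line of genotype Hira-/- (Hira-null), which lacks the histone H3.3 chaperone HIRA. Cells of both lines were grown in serum with ESGRO, a leukemia inhibitory factor (LIF) supplement, and were kept undifferentiated. Hira-null is represented by the single line Cl34, so an effect of Hira loss and any other difference between the lines cannot be told apart. Harvests were made at differing confluence, and the labels do not say which array had which. The replicates are labelled biological with no further detail, so the p-values reflect variation between arrays, part of which may be technical.

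BMP ligands such as BMP4 bind a pair of type I and type II serine/threonine kinase receptors, and the type I receptor then phosphorylates SMAD1 and SMAD5. With SMAD4, these enter the nucleus and switch on target genes, of which the Id genes are among the most direct. ID proteins have a helix-loop-helix domain but no basic DNA-binding region, and they hold E proteins and their partners off DNA. In mouse ES cells, BMP or serum acting with LIF sustains self-renewal, and Id genes are a known part of that response, holding back neural differentiation. SMAD6 and BAMBI are feedback inhibitors that act on the receptors and their SMADs.

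Values are deposited log2 expression values, and a difference is Hira-null minus WT on that scale, with SD over n = 3 arrays and the standard error (SE) or 95% interval from limma, a linear model fitted across all probe sets. The Hira probe set itself was lower in Hira-null arrays without overlap, at 7.73 ± 0.21 in WT and 7.09 ± 0.30 in Hira-null (limma adjusted p = 0.352), and it is not known whether its probes lie in the deleted part. All 8 ES cell markers examined, Pou5f1 and Nanog among them, read between 7.98 and 11.86, above the array medians of 4.93 to 5.02, on every array of both lines. Averaged over the list, these markers were lowest in Hira-null replicate 3 (9.92), and between 10.13 and 10.46 on the other arrays. Nanog, Sox2, Zfp42, Tdgf1 and Utf1 each had their lowest value on that array. Esrrb had its highest value there (9.96), while Klf4 (8.49) and Pou5f1 (11.35) lay within the range of the other arrays. Fibroblast markers, of which 5 of 8 passed the filter, averaged 4.61 to 5.05 in WT and 4.43 to 4.94 in Hira-null arrays, with the highest value in WT replicate 1. Their members did not move together, since Thy1 was higher without overlap (0.76) and Col1a2 lower without overlap (-0.72), neither past the threshold (limma adjusted p = 0.285 and 0.539). Primitive endoderm markers averaged 5.65 to 6.04 in WT and 5.34 to 5.70 in Hira-null arrays, with the average also highest in WT replicate 1. Gata4, Gata6 and Dab2 were highest on that array, whereas Sox17, Sox7 and Foxa2 were not. Gata6 (-0.55) and Dab2 (-0.83) were lower without overlap, neither past the threshold (limma adjusted p = 0.394 and 0.472). Of the 6 markers, 1 was higher, Foxa2 at 0.02. Mesoderm markers averaged 4.34 to 4.75 in WT and 4.40 to 4.75 in Hira-null arrays. Neuroectoderm markers were the list whose lines did not overlap, averaging 5.47 to 5.60 in WT and 4.91 to 5.26 in Hira-null arrays. Among them Pax6 stood at -1.21 (limma adjusted p = 0.220) and Nes at -0.87 (limma adjusted p = 0.409). Sox1 went the other way at 0.20, as did Zic1 at 0.25, which did not pass the filter.

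None of the 10 genes passed the test of a difference between the lines. With limma and Benjamini-Hochberg adjustment over 25142 probe sets, 0 of 10 passed an adjusted p of 0.05, their adjusted p ran from 0.476 to 0.997, and 1 (Bambi) had an unadjusted p under 0.05. Over all probe sets tested, 0.00398% were called at the adjusted level and 10.1% had an unadjusted p under 0.05, 4.06% higher and 6.06% lower. Differences were above 0 for 7 genes and below 0 for 3, with a median of 0.18 against 0.003 over all probe sets tested. The lines did not overlap for 1 of the 10 genes, against 15.3% of all probe sets (7.09% higher and 8.17% lower in Hira-null arrays). WT replicate 1 and Hira-null replicate 3 stood apart from the other arrays in the averages of some marker lists above. With both left out, 0 of 10 genes passed, and the differences were 0.325 for Id1, 0.34 for Id2, 0.58 for Id3, 0.325 for Bmp4, -0.275 for Smad1 and 0.28 for Bambi. In RNA from whole cultures, fewer cells expressing a gene and less RNA per cell cannot be told apart.

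**Figure D1:**
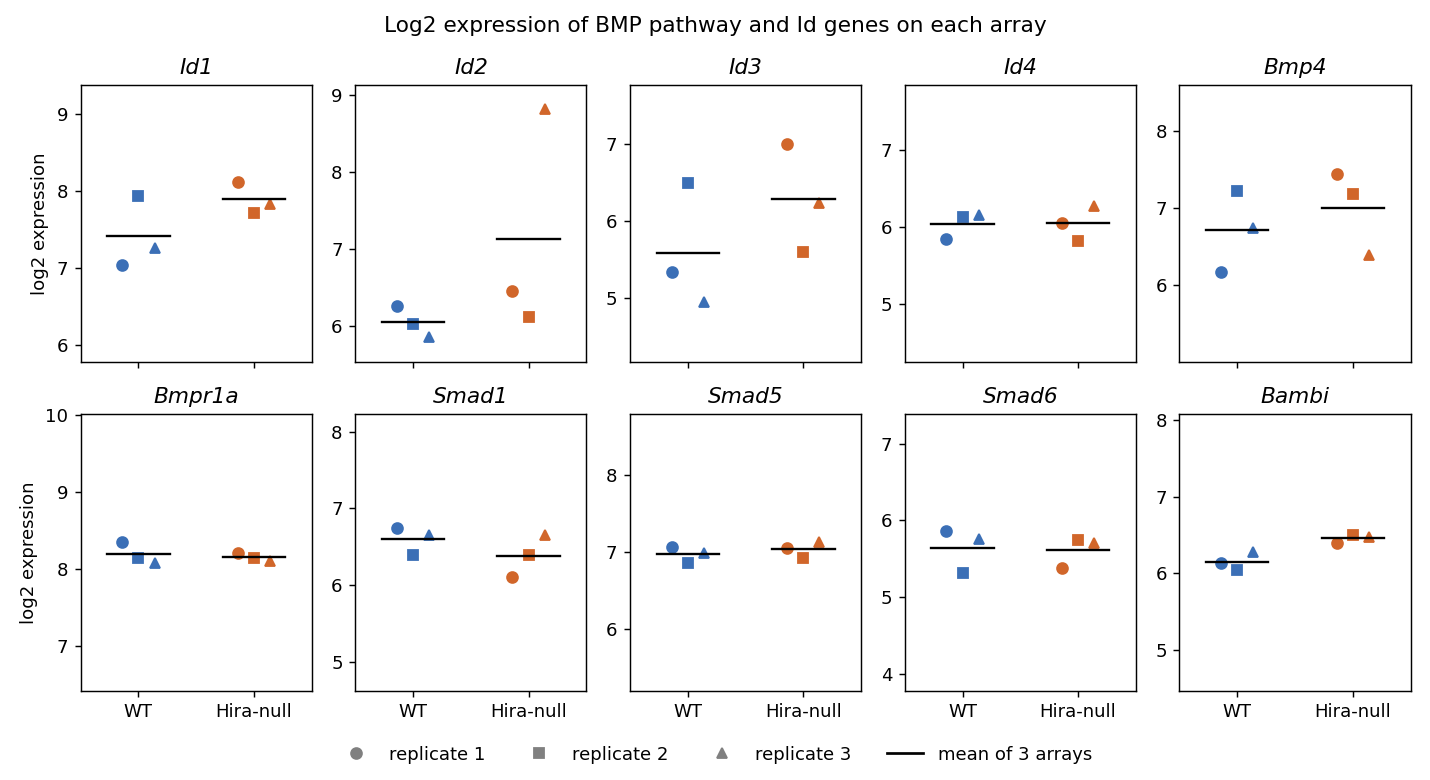
Log2 expression (vertical axes, each spanning the same range of log2 units) of the 10 genes on the 3 WT arrays (blue) and 3 Hira-null arrays (orange); marker shapes give the replicate and black lines the mean of a line. The Id2 value of Hira-null replicate 3, at 8.82, stands far above the other arrays, and Bambi is the gene whose lines do not overlap.

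Id1 averaged higher in the Hira-null line, with overlap between the lines and no call. Id1 encodes an inhibitor of E proteins and is widely used as a readout of BMP signalling. It read 7.04, 7.93 and 7.26 on the WT arrays and 8.12, 7.72 and 7.83 on the Hira-null arrays. The Hira-null arrays lay above WT replicates 1 and 3, but WT replicate 2 lay within their range. With means of 7.41 ± 0.46 and 7.89 ± 0.21, the log2 difference was 0.48 (SE 0.25), or 1.39-fold, and did not pass (limma adjusted p = 0.584). Its 95% interval of -0.10 to 1.06 covers no difference as well as a doubling. The estimate was 0.295 without WT replicate 1 and 0.74 without WT replicate 2.

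Id3, a close relative of Id1 that is likewise induced by BMP, varied more between arrays of the same line than between the lines. Its values were 5.33, 6.50 and 4.94 on the WT arrays and 7.00, 5.60 and 6.24 on the Hira-null arrays. Within a line the arrays spanned 1.56 in WT and 1.40 in Hira-null, and the difference of the means was 0.69 (SE 0.48, limma adjusted p = 0.710). As for Id1, the highest WT array was replicate 2 and the highest Hira-null array was replicate 1. The Id3 estimate was 1.145 without WT replicate 2 and 0.33 without Hira-null replicate 1.

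Id2 was high on a single array. Its product inhibits E proteins like the other ID proteins and is also known from lymphoid, neural and trophoblast development. It read 6.26, 6.03 and 5.85 on the WT arrays and 6.45, 6.11 and 8.82 on the Hira-null arrays. Hira-null replicate 3 was 2.37 above the next highest array, while the other Hira-null arrays lay at most 0.19 above the WT maximum. The mean difference of 1.08 (SE 0.66, limma adjusted p = 0.659) had an interval of -0.48 to 2.64, and it was 0.23 without Hira-null replicate 3. Hira-null replicate 3 exceeded the other 5 arrays by 2.37 or more for 5 of 25142 probe sets (0.0199%). Apart from Id2, these were the probe sets of the stress-induced transcription factor gene Ddit3 (3.05), the basic helix-loop-helix repressor gene Bhlhe41 (2.93) and the water channel gene Aqp3 (2.78), and a probe set with no single symbol (2.39). This count was chosen after the Id2 values were seen. On the same array the trophoblast markers averaged 5.77, against 5.36 to 5.51 on the others. Krt8 (10.24) and Hand1 (5.89) had their highest value there, while Cdx2 (4.64) and Eomes (4.92) did not. Elf5, which did not pass the filter, had its lowest value there (3.15). Krt8 was also high in WT replicate 1 (9.51), against 7.84 to 8.51 on the remaining arrays. The ES cell markers averaged 9.92 on Hira-null replicate 3, though Esrrb had its highest value there. The part of all these markers in the Id2 value was not tested.

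Id4, the member of the family best known from neural and germline progenitors, showed the smallest difference of the 10 genes. The values were 5.85, 6.13 and 6.16 on the WT arrays and 6.05, 5.82 and 6.28 on the Hira-null arrays. The lines overlapped fully, with means of 6.05 ± 0.17 and 6.05 ± 0.23 and a difference of 0.003 (95% interval -0.39 to 0.40). Its sign was not stable, being negative with quantile normalization, median centring and array weights.

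The promoter windows of Id2 and Id3 are shown because these were the Id genes with the largest spread between arrays. They come from RefSeq's GRCm38.p6 annotation, run from 250 bases before to 50 bases after the gene start, and read 5′ to 3′ on the strand of the gene. Id2 lies at chr12:25096043-25096342 on the minus strand and Id3 at chr4:136143572-136143871 on the plus strand. Capitals mark 2 motifs bound by SMAD proteins, searched on both strands: GGCGCC, a GC-rich motif, and GTCT, the SMAD box, which reads AGAC on the opposite strand.
Id2: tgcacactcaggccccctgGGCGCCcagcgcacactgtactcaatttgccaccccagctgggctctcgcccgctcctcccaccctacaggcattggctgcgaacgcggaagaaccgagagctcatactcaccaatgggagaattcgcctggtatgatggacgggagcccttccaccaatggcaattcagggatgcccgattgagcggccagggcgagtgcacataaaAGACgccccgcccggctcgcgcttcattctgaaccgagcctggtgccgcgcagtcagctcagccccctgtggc
Id3: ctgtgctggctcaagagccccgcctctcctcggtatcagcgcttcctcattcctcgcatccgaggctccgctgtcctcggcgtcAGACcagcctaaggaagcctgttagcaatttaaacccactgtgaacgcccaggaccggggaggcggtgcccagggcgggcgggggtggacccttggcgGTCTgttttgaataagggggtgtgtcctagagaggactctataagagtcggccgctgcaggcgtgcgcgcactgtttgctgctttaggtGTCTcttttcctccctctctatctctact
The Id2 window holds 1 GGCGCC and 1 GTCT, and the Id3 window holds 3 GTCT and no GGCGCC. Of 32851 RefSeq promoter windows of the same length, 11.9% hold GGCGCC and 88.0% hold GTCT, so a match of the shorter motif is common. The Id4 window holds 1 GGCGCC and no GTCT. These matches describe the letters of the windows and are not evidence of binding.

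Bmp4, the ligand of the group, overlapped widely between the lines. Its values were 6.17, 7.23 and 6.75 on the WT arrays and 7.44, 7.19 and 6.39 on the Hira-null arrays. The lowest value in WT was that of replicate 1 and the lowest in Hira-null that of replicate 3. Means of 6.72 ± 0.53 and 7.01 ± 0.55 gave a difference of 0.29 (SE 0.35, limma adjusted p = 0.868). The estimate moved from 0.02 without WT replicate 1 to 0.60 without Hira-null replicate 3.

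The Bmp4 promoter window, at chr14:46390620-46390919 on the minus strand of GRCm38.p6, is shown because Bmp4 and Id3 peaked on the same array of each line. Capitals again mark GGCGCC and GTCT on either strand.
Bmp4: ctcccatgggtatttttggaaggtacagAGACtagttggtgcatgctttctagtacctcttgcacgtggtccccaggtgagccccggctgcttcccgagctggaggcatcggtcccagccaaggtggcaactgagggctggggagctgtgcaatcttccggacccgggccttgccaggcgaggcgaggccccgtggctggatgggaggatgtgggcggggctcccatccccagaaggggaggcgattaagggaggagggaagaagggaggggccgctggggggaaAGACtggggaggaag
It holds 2 GTCT and no GGCGCC, and it also holds 1 CACGTG and 3 CANNTG, E boxes of the kind bound by basic helix-loop-helix proteins, the CACGTG being counted in both. CACGTG was found in 7.15% and CANNTG in 72.3% of all windows. The Id3 window holds no CANNTG and the Id2 window holds 1.

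Id1, Id3 and Bmp4 shared the highest array of each line, while the order of the other arrays differed between them. WT replicate 2 was the highest WT array and Hira-null replicate 1 the highest Hira-null array for these 3 of the 10 genes. The same held for 15.2% of all probe sets tested. Each gene was also centred on its own mean of the 6 arrays, and profiles were compared by the root mean square difference. Bmp4 was then the member nearest to Id1, at 0.31 log2 units, and Id2 the farthest, at 0.98. The nearest member to Id3 was Id1, at 0.40. Id4 and Bambi, each at 0.36, were nearer to Id1 than Id3 was. Profiles were not scaled, so genes that vary little can also lie close. These distances therefore do not set Id1, Id3 and Bmp4 apart as a group. The labels give WT replicate 2 and Hira-null replicate 1 no shared feature. Over all probe sets tested, however, their deviations from the line means went together (r = 0.36). Those of WT replicate 1 and Hira-null replicate 3 did so too (r = 0.44). Deviations within a line cancel over its 3 arrays, so these are not separate agreements. The r was -0.41 for WT replicate 2 with Hira-null replicate 3, and -0.34 for WT replicate 1 with Hira-null replicate 1. The shared highest arrays are thus not particular to these genes, and the part of technical differences between arrays was not tested.

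**Figure D2:**
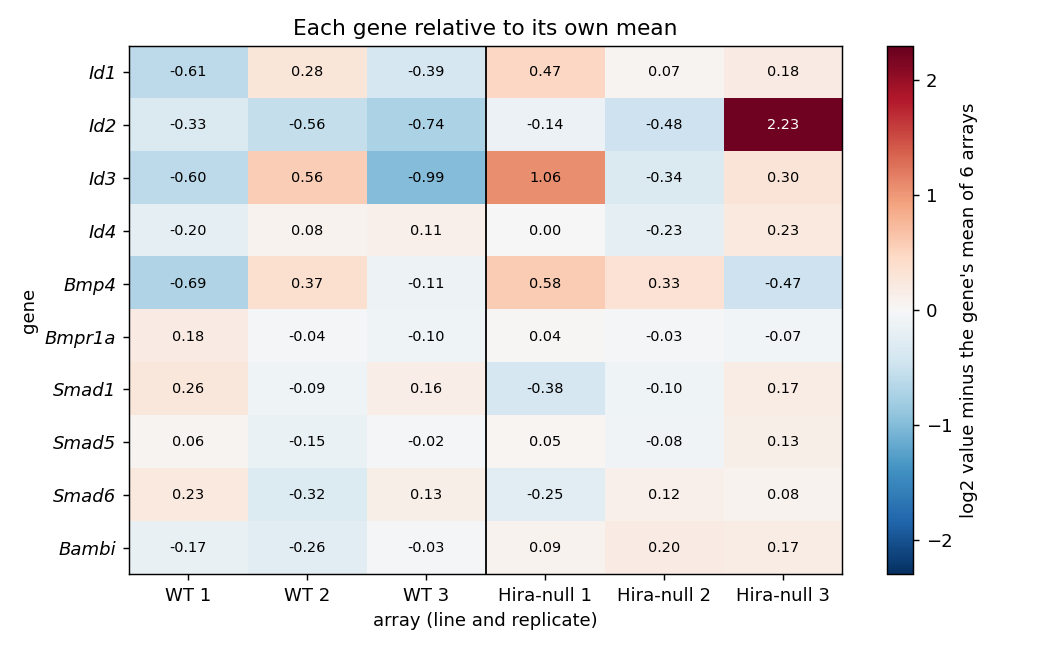
Log2 value of each gene (rows) on each array (columns) minus the mean of that gene over the 6 arrays, with red above and blue below the mean. Id1, Id3 and Bmp4 are high in WT replicate 2 and Hira-null replicate 1, Id2 is 2.23 above its mean in Hira-null replicate 3, and Bmpr1a and Smad5 stay close to their means.

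The genes with profiles nearest to Id1, out of 2523 genes with a range of at least 1 over the arrays, were Snhg5, Arhgef26, Gabpb2, Map3k7 and Rmdn2, at root mean square differences of 0.10 to 0.13 over 6 arrays. Map3k7 encodes the kinase TAK1. It read 7.83, 8.37 and 8.10 on the WT arrays, and 8.83, 8.41 and 8.60 on the Hira-null arrays. For Id3 the nearest were Tdpoz3, Gm10778, Phlda1, A630072M18Rik and Fam83h, at 0.19 to 0.30. With 6 arrays and this many genes, close profiles are found for many genes.

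The type I receptor gene Bmpr1a, whose product binds BMP4 and phosphorylates SMAD1 and SMAD5, was almost the same on all arrays. It read 8.36, 8.14 and 8.08 on the WT arrays and 8.21, 8.15 and 8.11 on the Hira-null arrays. All 3 Hira-null values lay inside the WT range. The difference was -0.04 with a 95% interval of -0.34 to 0.27, which in linear terms is 0.789-fold to 1.20-fold.

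Smad5, a receptor-activated SMAD, was likewise narrow in range. Values were 7.07, 6.86 and 6.99 on the WT arrays and 7.06, 6.93 and 7.14 on the Hira-null arrays. The lines overlapped, and the difference was 0.07 with an interval of -0.23 to 0.37.

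Smad1, the other receptor-activated SMAD of the group, had the most negative difference of the 10 genes. It read 6.75, 6.40 and 6.65 on the WT arrays and 6.11, 6.39 and 6.66 on the Hira-null arrays. Hira-null replicate 1 was the lowest array, whereas replicate 3 was as high as the WT arrays. The difference was -0.21 (SE 0.18, limma adjusted p = 0.773) and lay between -0.35 and -0.08 when single arrays were left out. Smad1 lies on chromosome 8, where the median difference over 809 genes was -0.27, while the 18 chromosomes other than 8, 11 and Y had medians of 0 to 0.04. The difference for Smad1 was thus near the median of its chromosome, and the part of the chromosome-wide shift in it was not tested. The other 9 genes lie on neither chromosome 8 nor chromosome 11.

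Smad6 and Bambi encode inhibitors that BMP signalling induces. SMAD6 competes with the receptor-activated SMADs, and BAMBI is a receptor-like protein without a kinase domain. Smad6 read 5.86, 5.31 and 5.76 on the WT arrays and 5.38, 5.75 and 5.71 on the Hira-null arrays. The lines overlapped almost completely, and the difference was -0.03 with an interval of -0.48 to 0.42.

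Bambi was the gene of this group with the most separate lines. It read 6.13, 6.05 and 6.28 on the WT arrays and 6.39, 6.50 and 6.48 on the Hira-null arrays, so that every Hira-null array lay above every WT array. The gap between the lines was 0.11 on the log2 scale, about the range of the Hira-null arrays (0.11) and less than that of the WT arrays (0.23). Means of 6.15 ± 0.12 and 6.46 ± 0.06 gave a difference of 0.30 (SE 0.12) or 1.23-fold, with an unadjusted p of 0.0436 and a limma adjusted p of 0.476. Among all probe sets tested, 4.06% were higher at an unadjusted p under 0.05 and 7.09% were higher without overlap, as Bambi was. Over all alternatives the Bambi difference stayed between 0.25 and 0.37, with adjusted p of 0.425 to 0.786. Its limma unadjusted p did not stay under 0.05. It ran from 0.0325 with no filter to 0.138 without WT replicate 2, and was 0.0583 with quantile normalization.

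**Figure D3:**
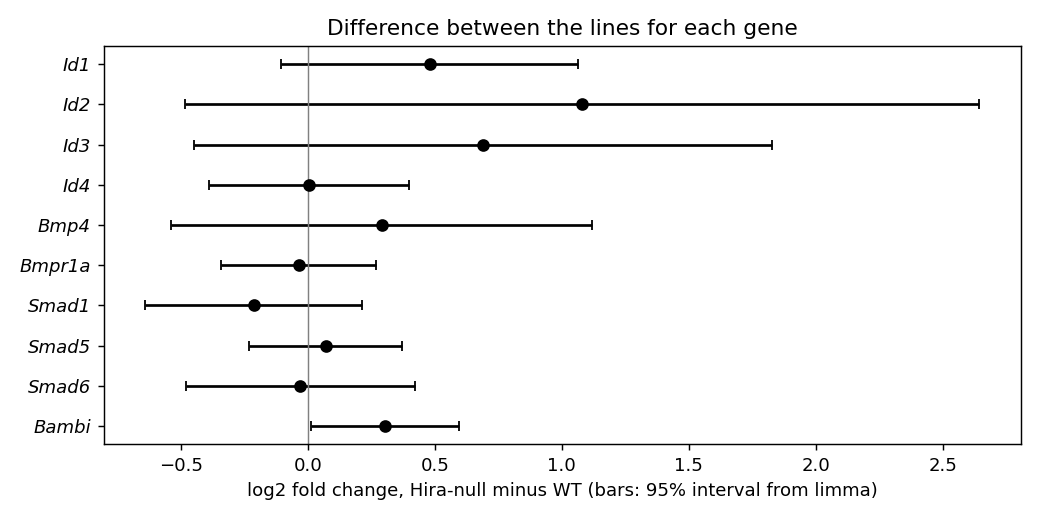
Log2 fold change of each gene, Hira-null minus WT (points), with the 95% interval from limma (bars). The intervals of Id2 (-0.48 to 2.64) and Id3 (-0.45 to 1.83) are the widest, and that of Bambi (0.01 to 0.60) is the one that does not include 0 before adjustment.

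The genes differed widely in how much they varied between arrays of the same line. The pooled SD within a line was 1.05 for Id2, 0.76 for Id3, 0.54 for Bmp4 and 0.36 for Id1. It was 0.11 for Bmpr1a, 0.11 for Smad5 and 0.09 for Bambi, against a median of 0.21 over all probe sets tested. Among probe sets whose mean lay within 0.5 log2 units of the gene's own, these SDs stood at percentile 99.7 for Id2, 98.2 for Id3, 94.0 for Bmp4 and 79.2 for Id1. For Bambi, Smad5 and Bmpr1a they stood at percentiles 5.26, 7.82 and 11.6. Id4, Smad1 and Smad6 lay between percentiles 40.0 and 56.2. The spread of Id2 rests on Hira-null replicate 3, whereas Id3 and Bmp4 spread in both lines. These percentiles are a description, and how far confluence at harvest took part in the spread was not tested.

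**Figure D4:**
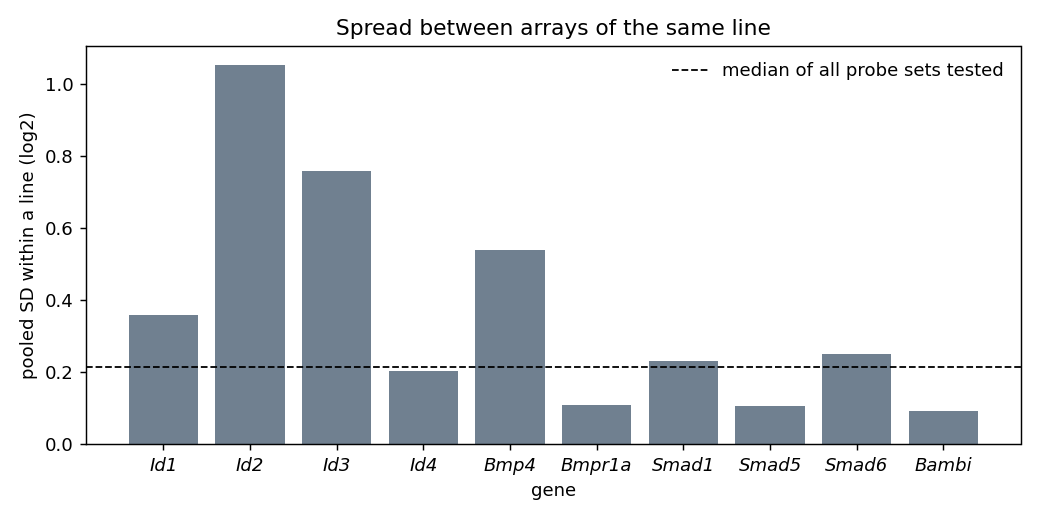
Pooled SD between arrays of the same line (vertical axis, log2 units) for each gene, with the median of all 25142 probe sets tested as a dashed line. Id2, Id3, Bmp4 and Id1 stand above the median of 0.21, and Bmpr1a, Smad5 and Bambi well below it.

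The wider pathway was described with 7 lists of other ligands, receptors, SMADs, antagonists, regulators, BMP-responsive genes and helix-loop-helix partners of ID proteins. Of the listed genes, 76 were measured and passed the filter, each gene standing for its brightest probe set by mean. None of the 76 passed (limma, adjusted p from 0.274 to 0.997), and 3 were higher and 1 lower at an unadjusted p under 0.05. Over the 15199 genes tested, 0% were called, and 10.5% had an unadjusted p under 0.05, 4.17% higher and 6.29% lower. The median difference of the 76 genes was 0.03, against -0.01 over all genes tested. The values over all genes include chromosomes 8 and 11, with medians of -0.27 and -0.24. The 18 chromosomes other than 8, 11 and Y had medians of 0 to 0.04. The lines did not overlap for 7 genes that were higher and 3 that were lower, where 17.4% of all genes did not overlap, 7.80% higher and 9.55% lower.

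**Figure D5:**
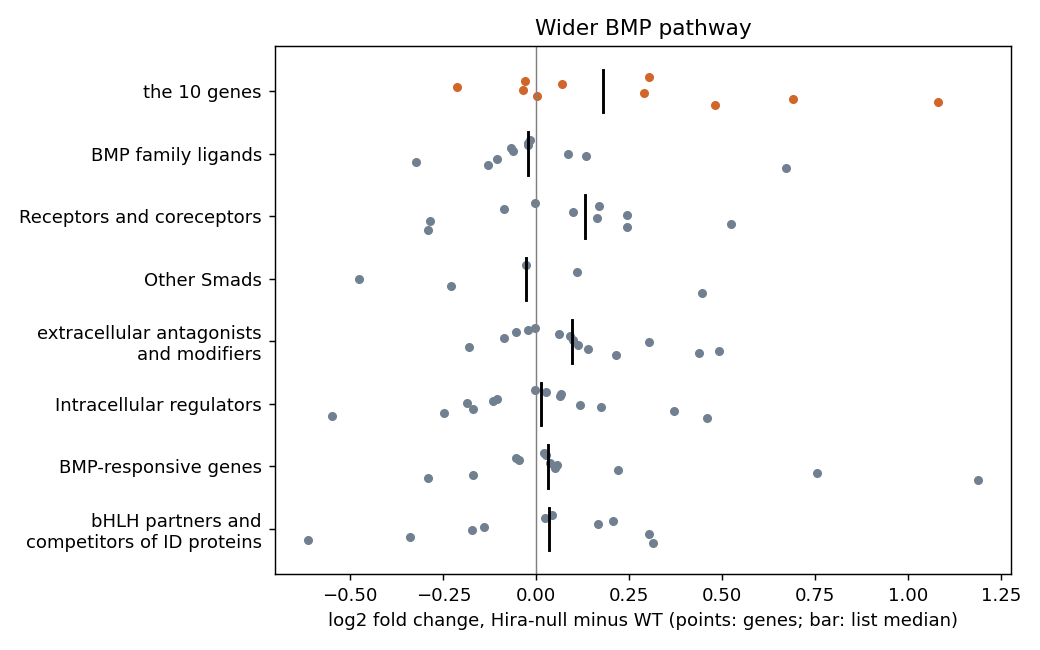
Log2 fold change, Hira-null minus WT, of the 10 genes (orange) and of the measured genes of the 7 pathway lists (grey points), with a black bar at the median of each list. Medians of the 7 lists lie between -0.03 and 0.13, with Dusp9 the gene farthest to the right at 1.19.

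Among the other BMP family ligands, 3 of 11 measured genes had higher and 8 lower values, and none passed. Bmp8b, a ligand known from germ cell development, read 5.22, 5.18 and 4.93 on the WT arrays and 5.56, 5.43 and 6.35 on the Hira-null arrays. The lines did not overlap, and the difference was 0.67 (SE 0.25, limma adjusted p = 0.439), or 0.385 without Hira-null replicate 3. Gdf3, a ligand expressed in pluripotent cells, stood at -0.32, and it was 0.04 without Hira-null replicate 3, which read 8.08 against 8.87 or more elsewhere. Gdf5 and Gdf2 stood at -0.13 and -0.11. Bmp2, Bmp5, Bmp10 and Bmp15 did not pass the filter.

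Of the 10 measured receptors and coreceptors, 6 were higher and 4 lower, and none passed. The coreceptor genes Rgma and Rgmb had opposite signs, at 0.24 and -0.29. Eng, which encodes the coreceptor endoglin, stood at 0.52 and was highest in Hira-null replicate 3 (7.97), without which it was 0.23. That array was the highest for 23.9% of all probe sets tested, so such a peak, here and in the lists below, is common. Acvr1, a further type I receptor gene, stood at -0.29, and at -0.095 without WT replicate 1 and -0.44 without WT replicate 3. Bmpr1b did not pass the filter.

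Among the other SMADs, the inhibitory Smad7 read 7.99, 8.43 and 7.87 on the WT arrays and 9.00, 8.59 and 8.04 on the Hira-null arrays. Its highest arrays were those of Id1, Id3 and Bmp4, and its difference was 0.45 (SE 0.27, limma adjusted p = 0.653). Smad3, of the TGF-beta branch, stood at -0.48, with -0.12 without WT replicate 1 and -0.85 without WT replicate 2. Smad9 stood at -0.23 (-0.38 to -0.14 with single arrays left out) and the common partner Smad4 at 0.11.

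Of 14 measured extracellular antagonists and modifiers, 9 were higher and 5 lower, and none passed. The genes for the BMP-binding proteins chordin and gremlin, Chrd (0.21) and Grem1 (0.14), were higher without overlap (limma adjusted p = 0.636 and 0.758). Both were low, at 4.65 to 5.01 for Chrd and 4.20 to 4.41 for Grem1, near or below the array medians. Twsg1 and Fstl1 stood at 0.49 and 0.44, each with its highest value in Hira-null replicate 3, and both at 0.22 without it. Of 14 intracellular regulators, 7 were higher and 7 lower. Usp9x, which encodes a deubiquitinase that acts on SMAD4, had the smallest p of the 76 genes. It read 10.24, 10.21 and 10.17 on the WT arrays and 10.68, 10.58 and 10.74 on the Hira-null arrays, a difference of 0.46 (SE 0.12, limma adjusted p = 0.274) without overlap. Smurf2, which encodes a ubiquitin ligase acting on SMADs and receptors, was lower without overlap at both of its probe sets, at -0.55 (limma adjusted p = 0.372) and -0.48 (limma adjusted p = 0.429). Smurf2 lies on chromosome 11, where the median over 1351 genes was -0.24; the part of that shift in its value was not tested. Tob2 stood at -0.25, and Zfp423, a SMAD cofactor gene on chromosome 8, at 0.37.

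Dusp9, an X-linked gene for a phosphatase of ERK kinases that BMP induces in ES cells, had the largest difference of the pathway lists. It read 8.45, 7.38 and 7.74 on the WT arrays and 8.65, 8.56 and 9.92 on the Hira-null arrays. No Hira-null array fell below the highest WT array, but the margin to WT replicate 1 was small. The difference was 1.19 (SE 0.42) or 2.28-fold, with a limma adjusted p of 0.409, and 0.75 without Hira-null replicate 3. The other BMP-responsive genes with the smallest p were Hey1 (-0.29), Msx1 (-0.17) and Gata2 (0.75), and none of the 12 passed. Gata2 resembled Id2 in reading 7.28 in Hira-null replicate 3 and 4.95 to 5.49 elsewhere, and its difference was 0.09 without that array.

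The partners and competitors of ID proteins gave 6 higher and 4 lower values among 10 measured genes, and none passed. Tal1, a hematopoietic factor, stood at 0.31 without overlap, and the proneural genes Neurod1 and Neurog1 at -0.61 and -0.34. Neurod1 was low in Hira-null replicates 1 and 2 (4.43 and 4.31) and 5.54 in replicate 3, within the WT values. Neuroectoderm markers averaged lower in the Hira-null arrays, as given above, with Pax6 and Nes lower but Sox1 and Zic1 higher. The part of these markers in the values of the proneural genes and of the Id genes was not tested. Tcf12, which encodes an E protein, stood at 0.30, with its highest value of 7.96 in Hira-null replicate 3 and 0.03 without that array.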

How the data were processed

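RNA of 6 samples was hybridised to 6 arrays, 3 per line, as the labels give them. The authors deposited log2 expression values for 35557 probe sets; the submitters' processing notes name GCRMA, with no version, and their range, 1.14 to 14.03, shows the log2 scale. The genome build is not given in the sources used here. Between-array normalization hides a shift shared by most genes. Symbols came from the platform's probe table and were updated through Entrez identifiers with GRCm38.p6 gene names: 21789 probe sets carry 1 symbol, 1621 several and 12147 none, and 21698 were matched.

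Probe sets with at least 3 of 6 arrays above 3.78, the 30th percentile, were kept (25142). Hira-null minus WT was fitted with limma 3.58.1 (lmFit and eBayes; R 4.3.3), two-sided, with no covariate, Benjamini-Hochberg adjustment over the kept probe sets and a threshold of 0.05. The procedure was tested on simulated arrays. Precision is limited by the number of arrays (median SE 0.17). Named are all members, Hira, up to 4 genes per pathway list by smallest unadjusted p, and the 5 genes nearest to Id1 and to Id3; other genes were named after their values were seen. Members and lists were chosen with earlier results of these data known. Alternatives were other filters, normalizations, variance models, array weights, the replicate number as a block, gene means over probe sets, and arrays left out.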

Additional observations from a re-analysis of the deposited data

How the results depend on the processing

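No member passed under any alternative run, and no pathway gene in any alternative in which it was tested (the stricter filter kept 54 of the 76, and 7 named genes were left out there), with adjusted p no lower than 0.425 for members and 0.169 for named pathway genes. Over the settings, 0 to 2 members had an unadjusted p under 0.05. Differences of 7 members kept their sign under all 15 alternatives. The other filters, the variance models and the replicate block leave a difference as it is. Only the normalizations, array weights and left-out arrays could therefore change a sign. In size, 9 of the 10 members moved by over 1.5 times when a single array was left out. For Id4, Smad6, Bmpr1a and Smad5, whose differences are near 0, a small move meets this ratio. Smad5, for example, ran from 0.01 to 0.13. Id4 read -0.013 with quantile normalization, -0.0033 with median centring, -0.15 with arrayWeights, -0.21 with WT replicate 1 and Hira-null replicate 3 left out together, and -0.11 to 0.12 leaving out single arrays. Bmpr1a read 0.018 with arrayWeights, 0.07 without both arrays and -0.093 to 0.047 leaving out single arrays; Smad6 read 0.03 without both arrays and -0.20 to 0.087 leaving out single arrays. Of the 28 named pathway genes 27 kept their sign, Gdf3 (-0.56 to 0.04 leaving out single arrays) being the exception, and 18 of the 28 moved by over 1.5 times when a single array was left out.

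Over all probe sets, 1 was called; the count was 2 with the stricter filter, 2 with median centring, 5 with arrayWeights, 0 with WT replicate 1 and Hira-null replicate 3 left out together, and 0 to 43 leaving out single arrays, the 43 without Hira-null replicate 2. With the replicate block, 0 probe sets and 0 members were called. Same-numbered arrays did not deviate together (r over probe sets of -0.34, 0.17 and -0.10), so the numbers were not taken to pair the arrays.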
